A study of Mus musculus with 16 samples.

Results

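Vascular endothelial growth factors (VEGFs), angiopoietins and their receptor tyrosine kinases are described here in mouse spinal cord. The 10 genes were chosen by symbol as the main ligands and receptors of both systems: Vegfa, Vegfb, Vegfc, Flt1, Kdr, Flt4, Tek, Tie1, Angpt1 and Angpt2. They are 10 of 24411 gene symbols in the tables, and all 10 passed the filter for testing (mean TPM, a level per transcript length and per library, above 1 in at least 1 condition), which 16091 symbols passed. RNA was sequenced from 16 female C57BL/6J mice, and injury was made at 12 weeks of age. The SCI + Atorvastatin group (n = 7) received a 0.25 mm lateral compression of the thoracic cord (spinal cord injury, SCI) and then atorvastatin, a statin that inhibits cholesterol synthesis, at 10 mg/kg daily from 2 weeks after injury for 4 weeks. The SCI + Vehicle group (n = 7) had the same injury and schedule with the solvent alone (DMSO, polyethylene glycol, Tween 80 and saline), and the Uninjured Control group (n = 2) had no injury, drug or solvent. By the study's methods the controls were also younger at isolation than the SCI mice. All groups had the same genetic background, and a 5 mm segment at the lesion, or at the matching level of the uninjured cord, was taken 6 weeks after injury following saline perfusion.

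VEGF-A drives the growth and permeability of blood vessels mainly through the receptor Kdr. Flt1 binds VEGF-A and VEGF-B tightly but signals weakly, so it can act as a sink for the ligand, and Flt4, the receptor for VEGF-C, is best known from lymphatic endothelium and from sprouting vessels. Angiopoietin 1, made largely by cells around the vessel, activates the receptor Tek and keeps vessels quiet. Angiopoietin 2 is released by endothelial cells and often opposes it, while Tie1 has no well-established ligand and modifies signalling by Tek. These receptors are best known from endothelium, but none of them is taken here as a marker of it.

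The libraries held 14823292 to 25579826 counts on genes. The control libraries stood apart from the others: a count was found for 12356 and 12732 genes in them and for 16399 to 19338 in the SCI mice. Among the 7670 genes that averaged 100 to 1000 counts over the SCI mice, 14.97% and 18.1% were at 0 in the control libraries, against at most 0.300% in any SCI library, and 19.5% were at 0 in 1 control only. Of the 10 genes, 5 were at 0 in at least 1 control. Vegfc was at 0 in both controls, Kdr and Tie1 were at 0 in control 2, and Angpt1 and Angpt2 were at 0 in control 1, whereas 1 of 140 values in SCI mice was at 0 (Vegfc in SCI + Atorvastatin mouse 4). A count of 0 allows 3 counts, or 0.117 to 0.202 CPM (counts per 1000000 counts), and this limit covers counting error only. Liver transcripts were also found in the controls: the summed level of 8 liver markers was 4236 and 691 CPM there and at most 10.2 CPM in SCI mice. In bulk tissue, fewer cells of a type and less RNA per cell cannot be told apart.

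Flt1 and Kdr, whose ratio within a mouse is compared between the treatments, lie on the same chromosome, at chr5:147561604-147726011 and chr5:75932827-75978458 of GRCm38, both on the minus strand. Of the others, Tek and Tie1 lie on chromosome 4, Angpt2 and Vegfc on chromosome 8, Flt4 on chromosome 11, Angpt1 on chromosome 15, Vegfa on chromosome 17 and Vegfb on chromosome 19, and all 10 are protein-coding genes. The promoters of Flt1 and Kdr are shown because this ratio passed its test in counts, although not after adjustment in TPM. They are given as the 250 bases before the RefSeq start (GRCm38.p6, minus strand, written 5′ to 3′ along the gene). Capitals mark 2 short motifs on either strand, the GC box GGGCGG and CCGGAA, 1 form of the ETS site. ETS factors are a family with central roles in endothelial cells.
Kdr (chr5:75978456-75978705): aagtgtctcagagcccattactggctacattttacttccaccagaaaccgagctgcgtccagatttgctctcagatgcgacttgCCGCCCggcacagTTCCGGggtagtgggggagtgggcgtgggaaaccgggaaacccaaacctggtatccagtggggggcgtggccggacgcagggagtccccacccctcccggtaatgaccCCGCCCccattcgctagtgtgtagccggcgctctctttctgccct
Flt1 (chr5:147726012-147726261): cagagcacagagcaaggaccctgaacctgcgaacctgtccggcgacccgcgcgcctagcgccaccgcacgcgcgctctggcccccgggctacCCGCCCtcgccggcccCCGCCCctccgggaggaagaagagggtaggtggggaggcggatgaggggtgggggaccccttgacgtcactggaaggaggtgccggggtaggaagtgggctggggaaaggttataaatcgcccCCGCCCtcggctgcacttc
The Kdr window held 2 GC boxes and 1 CCGGAA, which do not overlap, and the Flt1 window held 3 GC boxes and no CCGGAA. The shorter ETS core GGAA was not searched for, and with both strands read it occurs in both printed windows. The windows are therefore not told apart by ETS sites in general. GC boxes were present in 32.7% and CCGGAA in 12.0% of 32851 promoter windows of this length. The sequence ACGTG, a form of the hypoxia core present in 16.6%, was found in neither the Kdr nor the Flt1 window. The other form, GCGTG, was not searched for, and with both strands read it occurs in both printed windows. RefSeq promoters were matched for 8 of the 10 genes, and Angpt1 and Angpt2 were named only. These matches describe the letters of the windows and nothing about binding.

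Per unit of transcript length, Vegfb, Vegfa and Flt1 were the most abundant of these transcripts in injured cord. In SCI + Vehicle mice (n = 7, mean ± SD in TPM), Vegfb stood at 179 ± 48.0, Vegfa at 49.97 ± 10.1 and Flt1 at 36.4 ± 7.86. Angpt1 followed at 14.7 ± 3.27 and Tek at 9.84 ± 2.69. Kdr stood at 5.33 ± 2.14, Tie1 at 4.09 ± 2.25 and Angpt2 at 3.74 ± 1.98. Flt4 (2.07 ± 0.888) and Vegfc (1.62 ± 1.61) were lowest. The order in SCI + Atorvastatin mice was the same except for Angpt2, which stood at 8.43 ± 2.08 TPM, next to Kdr at 7.999 ± 2.12 and ahead of Tie1 at 4.94 ± 1.94. Between neighbours in this order, the ranges over mice were separate in both groups for Vegfb and Vegfa and for Flt1 and Angpt1, and they overlapped for every other pair.

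**Figure D1:**
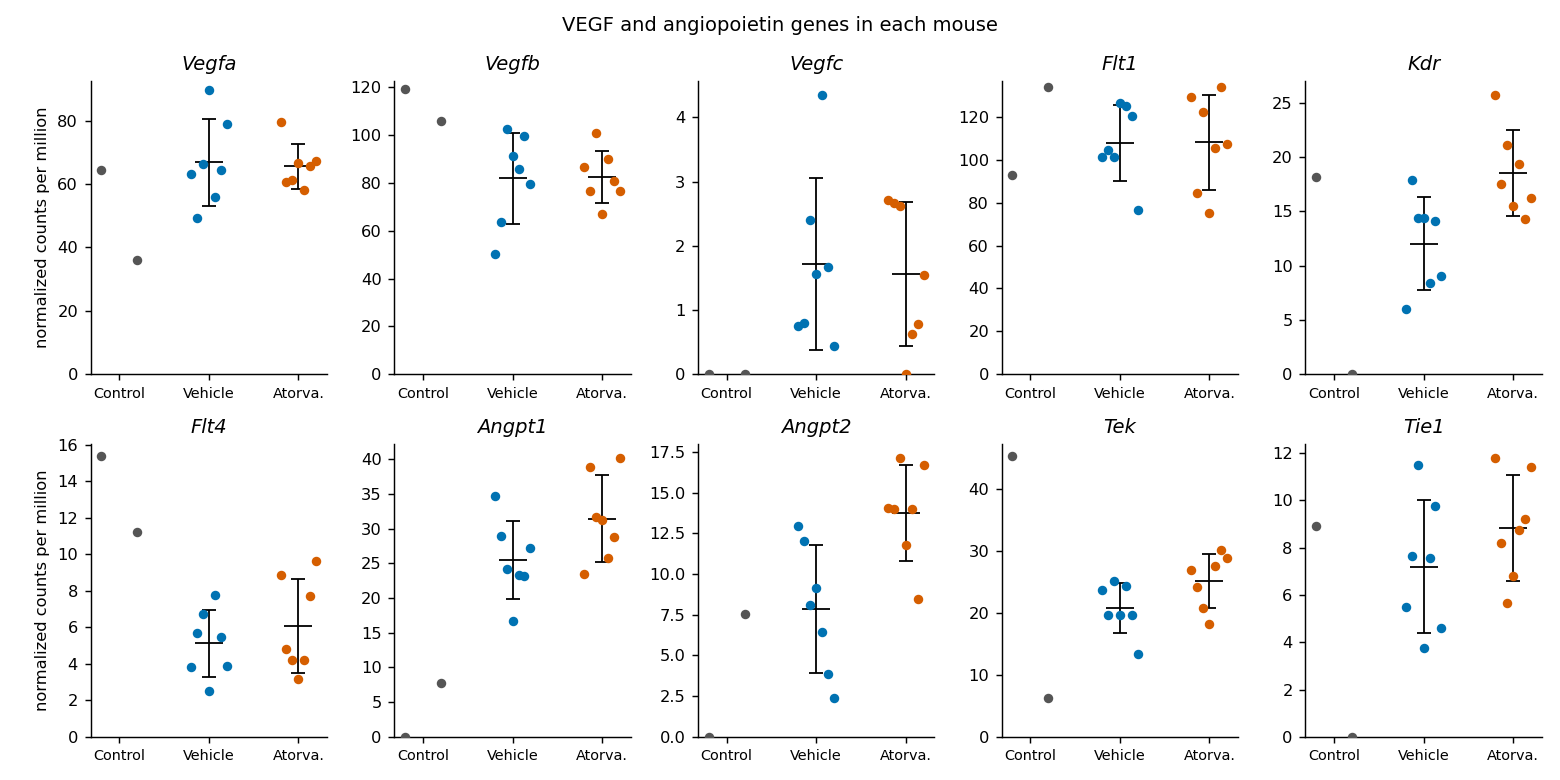
Level of each of the 10 genes in each mouse, in CPM after TMM normalization, with points for mice (2 Uninjured Control, 7 SCI + Vehicle, 7 SCI + Atorvastatin) and black marks for the mean ± SD of the groups of 7. Kdr and Angpt2 sit higher in SCI + Atorvastatin than in most SCI + Vehicle mice, Flt4 sits below both controls in all SCI mice, and the controls differ widely from each other for Kdr, Tek and Tie1.

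The comparison of SCI + Vehicle with Uninjured Control asks how these genes stood in chronically injured cord without the drug. Injury, 4 weeks of daily solvent and the difference in age cannot be told apart in it, and the comparison of SCI + Atorvastatin with Uninjured Control adds the drug to them. A gene was called when its adjusted p (edgeR quasi-likelihood test, Benjamini-Hochberg over 16091 genes) was below 0.05 and its log2 fold change passed 0.322, a change of 25%. By this rule 29.8% of all genes were called in this comparison and 38.9% in that of SCI + Atorvastatin with Uninjured Control. Of the 10 genes, 2 were called in each, which is not above those shares. Any gene at 0 in both controls, such as Vegfc, could pass the filter for testing only through the SCI groups. Both comparisons share the 2 controls, and with so few the calls turn on each of them.

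Among the ligands, Vegfc, a growth factor for lymphatic and sprouting vessels, was called higher in both comparisons. It passed the filter for testing only through the SCI groups, at means of 1.62 TPM with vehicle and 1.65 TPM with atorvastatin. Its calls are thus no support on their own for a rise. Where a mean TPM above 1 was required in every condition, Vegfc was not tested. It was at 0 in both controls and was low after injury: the lowest, median and highest values were 0.440, 1.57 and 4.35 CPM with vehicle, and 0, 1.54 and 2.71 CPM with atorvastatin. Against the limit of 3 counts per control library, the vehicle mean was 12.0-fold higher (adjusted p = 0.0087, edgeR, 7 of 7 mice above the limit). With atorvastatin it was 10.9-fold higher (adjusted p = 0.028, edgeR, 6 of 7 mice above the limit). That limit covers counting error only. In the control libraries 14.97% and 18.1% of genes averaging 100 to 1000 counts in SCI mice were at 0, so these folds are no lower bound for the cord. At 10 to 99 counts in the SCI mice with a count, the precision of each value is low, and limma on log2(TPM + 1) gave adjusted p = 0.16 and 0.12.

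Vegfb, a ligand of Flt1, was lower than both controls in every SCI mouse. Controls stood at 119 and 106 CPM, SCI + Vehicle mice ranged from 50.3 to 103 CPM around a median of 86.0, and SCI + Atorvastatin mice ranged from 67.0 to 101 CPM around a median of 80.6. The groups did not overlap. The log2 fold change was −0.47 with vehicle (SE 0.224, adjusted p = 0.14, edgeR) and −0.44 with atorvastatin (SE 0.142, adjusted p = 0.033, edgeR), so that it was called in the latter. That call was lost without SCI + Atorvastatin mouse 2, 6 or 7 or control 1, with adjusted p from 0.056 to 0.092. It was also lost in the fit of all 3 groups (0.081), by limma on log2(TPM + 1) (0.136), with voom and group weights (0.54) and with the replicate number as a block (0.79). In TPM the groups did overlap, with controls at 227 and 203 TPM and SCI mice at 94.9 to 241 TPM.

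Vegfa was at 64.5 and 36.1 CPM in the controls. It ranged from 49.4 to 89.8 CPM with vehicle and from 58.0 to 79.6 CPM with atorvastatin, and both groups overlapped the controls. The log2 fold changes of 0.40 (SE 0.253, adjusted p = 0.27, edgeR) and 0.39 (SE 0.206, adjusted p = 0.16, edgeR) did not pass. On the TPM scale the controls were closer to each other (28.1 and 27.1) and every SCI mouse was above both, from 37.5 to 67.4 TPM. There, limma on log2(TPM + 1) called Vegfa higher in both comparisons (0.81, adjusted p = 0.019, and 0.83, adjusted p = 0.0080).

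Of the VEGF receptors, Flt4 had the lowest levels after injury relative to the controls. Controls stood at 15.4 and 11.2 CPM, while the SCI + Vehicle mice ranged from 2.52 to 7.78 CPM and the SCI + Atorvastatin mice from 3.17 to 9.63 CPM. Every SCI mouse was below both controls. The log2 fold change was −1.39 with vehicle (SE 0.472, adjusted p = 0.048, edgeR), which was called, and −1.12 with atorvastatin (SE 0.465, adjusted p = 0.082, edgeR), which was not. The vehicle call was lost on leaving out any 1 SCI + Vehicle mouse (adjusted p 0.053 to 0.077) or control 1 (adjusted p = 0.089), and also with no gene filter (0.068), with a mean TPM above 1 required in every condition (0.081), by limma on log2(TPM + 1) (0.054), with voom (0.58) and with the replicate block (0.92). In the other direction, the decrease with atorvastatin passed in the fit of all 3 groups (adjusted p = 0.048) and by limma on log2(TPM + 1) (0.039). The calls thus do not separate the treatments for Flt4. The share of all genes with every SCI mouse below both controls was 10.7% with vehicle and 14.2% with atorvastatin, and 2 of the 10 genes (Vegfb and Flt4) were so in each.

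Flt1 did not separate the groups: controls stood at 93.2 and 134 CPM, SCI + Vehicle mice at 76.6 to 127 and SCI + Atorvastatin mice at 75.2 to 134. Its log2 fold changes were −0.09 (SE 0.199, adjusted p = 0.79, edgeR) and −0.06 (SE 0.224, adjusted p = 0.87, edgeR). Kdr could not be placed against the controls, which held 362 and 0 counts. Its SCI values, 5.96 to 17.9 CPM with vehicle and 14.3 to 25.7 CPM with atorvastatin, lay between or above control values of 18.2 and 0 CPM.

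Angpt1, the activating ligand of Tek, was higher in every injured mouse than in either control. The controls held 0 and 7.70 CPM, SCI + Vehicle mice 16.7 to 34.7 CPM with a median of 24.2, and SCI + Atorvastatin mice 23.4 to 40.2 CPM with a median of 31.2. The groups were separate, yet the main test did not call it, with log2 fold changes of 2.70 (SE 1.13, adjusted p = 0.096, edgeR) and 3.03 (SE 1.11, adjusted p = 0.053, edgeR). DESeq2 called it in both comparisons (adjusted p = 0.017 and 0.0056), as did the fit of all 3 groups and limma on log2(TPM + 1). With vehicle, the edgeR log2 fold change was 1.72 without control 1 and 12.1 without control 2, where the lone control was at 0. Calls in those fits are not used, as the lone control is assumed to vary like the SCI mice. The share of all genes with every SCI mouse above both controls was 24.8% with vehicle and 29.8% with atorvastatin. With vehicle, Vegfc and Angpt1 were such genes, and with atorvastatin Angpt1 and Angpt2 were.

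Angpt2 stood at 0 and 7.52 CPM in the controls. It ranged from 2.38 to 13.0 CPM with vehicle, overlapping the controls, and from 8.45 to 17.2 CPM with atorvastatin, above both. Log2 fold changes were 1.04 (SE 1.29, adjusted p = 0.58, edgeR) and 1.88 (SE 1.18, adjusted p = 0.24, edgeR). Neither passed.

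For the Tie receptors, the controls differed from each other by more than the treatments did. Tek was at 45.3 and 6.21 CPM in the controls, and all 14 SCI mice, at 13.3 to 30.1 CPM, lay between them. Leaving out control 1 made Tek higher after injury (log2 fold change 1.73, adjusted p = 0.0022, edgeR, with vehicle) and leaving out control 2 made it lower (−1.14, adjusted p = 0.0048, edgeR). In those fits the lone control is assumed to vary like the SCI mice. Tie1 was at 8.94 and 0 CPM in the controls, 3.74 to 11.5 CPM with vehicle and 5.65 to 11.8 CPM with atorvastatin. No direction against uninjured cord is given for Tek, Tie1 or Kdr. Counts of the 10 genes called with 1 control left out are not used, as the calls over all genes also rose in those fits.

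Genes that work with these ligands and receptors were followed in lists. Of the partner ligands, co-receptors and phosphatase (Pgf, Vegfd listed as Figf, Angpt4, Nrp1, Nrp2 and Ptprb), 5 of 6 were tested. With vehicle 3 were called higher and none lower, and with atorvastatin 4 were called higher and none lower, beside 29.8% and 38.9% of all genes called in either direction. Ptprb, the endothelial phosphatase that acts on Tek, rose in both (log2 fold change 1.07, SE 0.288, adjusted p = 0.018, and 1.304, SE 0.301, adjusted p = 0.0065, edgeR). Nrp1, a co-receptor that strengthens signalling by Kdr, also rose in both (1.38, SE 0.457, adjusted p = 0.042, and 1.76, SE 0.447, adjusted p = 0.011, edgeR), although its controls differed, at 15.1 and 67.7 CPM beside means of 109 and 139 CPM in the SCI + Vehicle and SCI + Atorvastatin mice. Nrp2, a co-receptor of Flt4, was called with atorvastatin (0.80, SE 0.168, adjusted p = 0.0038, edgeR) and not with vehicle (0.56, SE 0.214, adjusted p = 0.073, edgeR). Figf was at 0 in both controls and averaged 1.06 and 1.03 CPM in the SCI + Vehicle and SCI + Atorvastatin mice. The list's median log2 fold change was 1.07 and 1.304, against 0.17 and 0.21 over all genes tested.

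Of 12 endothelial response genes, 3 were called higher with vehicle, and 3 higher and 1 lower with atorvastatin, with median log2 fold changes of 0.49 and 0.76. These counts are not above the 29.8% and 38.9% of all genes called. Notch1, a receptor that restrains sprouting, rose (0.81, adjusted p = 0.022, and 0.89, adjusted p = 0.0017, edgeR), as did Vash1, an endothelial inhibitor of angiogenesis induced by VEGF (0.70, adjusted p = 0.018, and 0.76, adjusted p = 0.0017, edgeR). Esm1, a tip cell gene, was at 0 in both controls and averaged 1.43 and 2.59 CPM after injury. Apln, the tip cell peptide apelin, fell with atorvastatin (−1.08, SE 0.151, adjusted p = 0.00040, edgeR) and stood at −0.77 with vehicle (adjusted p = 0.060, edgeR).

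Oxygen sensing genes lie upstream of Vegfa, a known target of hypoxia-inducible factors. Of 8, 1 was called higher and 2 lower in each comparison, near the shares of all genes called (29.8% and 38.9%). Arnt, the shared subunit of these factors, rose (1.77, SE 0.223, adjusted p = 0.00034, and 1.93, SE 0.243, adjusted p = 0.00022, edgeR), from 15.8 and 14.996 CPM in the controls to means of 53.1 and 58.3 CPM. Epas1, the alpha subunit common in endothelium, fell (−0.82, adjusted p = 0.00086, and −0.87, adjusted p = 0.00045, edgeR), and so did Egln1, an oxygen-dependent hydroxylase of these factors (−0.74, adjusted p = 0.018, and −0.85, adjusted p = 0.0025, edgeR). Of 12 hypoxia targets, 11 were tested, and they moved in both directions: 1 rose and 1 fell with vehicle, and 4 rose and 2 fell with atorvastatin, beside the same shares of all genes. P4ha1, a subunit of the enzyme that hydroxylates collagen, rose with atorvastatin (0.60, adjusted p = 0.0052, edgeR), as did Mxi1, an antagonist of Myc (0.41, adjusted p = 0.021, edgeR), and Bnip3, a mitophagy receptor, fell (−0.56, adjusted p = 0.0086, edgeR). With vehicle they stood at 0.48, 0.33 and −0.42 and were not called (adjusted p = 0.094, 0.083 and 0.092, edgeR). Pdk1, a brake on mitochondrial pyruvate use, rose in both (1.57 and 1.55, adjusted p = 0.036 and 0.035, edgeR). Its controls differed, at 28.4 and 4.89 CPM beside means of 49.4 and 48.4 CPM in the SCI + Vehicle and SCI + Atorvastatin mice. Ankrd37 fell in both (−1.91 and −1.85, adjusted p = 0.028 and 0.0073, edgeR). The list's medians were 0.06 and 0.18.

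Cell type markers stood as follows, with counts called to be read beside the 29.8% (vehicle) and 38.9% (atorvastatin) of all genes called in either direction. The summed level of 12 endothelial markers was 332 and 265 CPM in the controls, 219 to 365 with vehicle and 326 to 449 with atorvastatin. Endothelial markers were thus present in all libraries, but 1 of the 12 was at 0 in control 1 and 2 in control 2. Emcn, a capillary and venous sialomucin, was at 0 in both controls and averaged 5.02 and 4.89 CPM in the SCI groups. Erg was at 16.9 and 0 CPM in the controls. The controls also differed for Cldn5 (33.7 and 8.92 CPM), Slco1a4 (89.9 and 23.3 CPM) and Ly6c1 (9.94 and 38.8 CPM), and were close for Cdh5 (51.1 and 50.3 CPM) and Itm2a (20.9 and 20.4 CPM). Of the 12 endothelial markers 1 was called with vehicle and 4 with atorvastatin, all higher, which is not above those shares. Pericyte markers (8) summed to 288 and 170 CPM in the controls, 144 to 375 with vehicle and 330 to 473 with atorvastatin, with 3 and 4 called higher. Microglia or macrophage markers (8) summed to 88.9 and 152 CPM in the controls and to between 616 and 1036 CPM in SCI mice, with 5 and 6 called higher, and fibroblast markers (6) stood at 305 and 292 CPM in the controls, 177 to 1168 with vehicle (0 called) and 729 to 1964 with atorvastatin (5 called higher). Neuronal markers (8) summed to 7060.3 and 7688 CPM in the controls and to 3666 to 6019 CPM in SCI mice, with 6 called lower in each comparison. Astrocyte markers (8) stood at 8454 and 9160 CPM in the controls and 12443 to 14777 CPM in SCI mice, with 4 called higher and 1 lower in each. Lymphatic markers, of which 4 of 5 were tested, summed to 94.9 and 67.3 CPM in the controls and to 71.7 to 111 CPM in SCI mice, with 1 called higher (Pdpn, which reactive glia and stromal cells also express) and 1 lower (Prox1, also a gene of neural and oligodendrocyte lineages) in each comparison. For the endothelium of the liver, whose vessels carry Flt4, Tek and Kdr, the 5 markers summed to 16.02 and 7.02 CPM in the controls and to 2.83 to 17.6 CPM in SCI mice, with 3 and 4 of the 5 at 0 in the controls. The part of these cell types and of liver RNA in the differences against the controls was not tested.

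The comparison of SCI + Atorvastatin with SCI + Vehicle asks what the drug changed in injured cord, and it does not involve the control libraries. None of the 10 genes was called by the rule for this comparison (unadjusted p below 0.001 and the same limit on the fold change), which called 0.106% of all genes, and 0 genes in all had an adjusted p below 0.05 in edgeR or DESeq2, with 1132 and 1139 genes at an unadjusted p below 0.05. At an unadjusted p below 0.05, 2 of the 10 were higher with atorvastatin, Kdr and Angpt2, against 4.02% of all genes. Of the 10, 8 were higher and 2 lower, with a median log2 fold change of 0.26 against −0.0014 over all genes.

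Kdr was one of the pair with an unadjusted difference. The lowest, median and highest values were 14.3, 17.5 and 25.7 CPM with atorvastatin and 5.96, 14.1 and 17.9 CPM with vehicle. All 7 treated mice were above the vehicle median and 3 were above the highest vehicle mouse. The log2 fold change was 0.62 (SE 0.209, unadjusted p = 0.0070, adjusted p = 0.68, edgeR), a 1.54-fold difference that did not pass the correction. It ranged from 0.51 to 0.75 with each mouse left out. The unadjusted p rose to 0.29 in the fit that also holds the controls.

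Angpt2 had the largest log2 fold change among the 10 genes. With atorvastatin the lowest, median and highest values were 8.45, 14.02 and 17.2 CPM, and with vehicle they were 2.38, 8.12 and 13.0 CPM. All 7 treated mice were above the vehicle median and 5 were above every vehicle mouse. The log2 fold change was 0.81 (SE 0.284, unadjusted p = 0.0095, adjusted p = 0.68, edgeR), 1.75-fold, which did not pass the correction either. It ranged from 0.65 to 0.98 with each mouse left out, and the unadjusted p was 0.17 in the fit that also holds the controls.

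Angpt1 (log2 fold change 0.30, SE 0.150, adjusted p = 0.72), Tek (0.28, SE 0.148, adjusted p = 0.74), Tie1 (0.29, SE 0.247, adjusted p = 0.84) and Flt4 (0.24, SE 0.301, adjusted p = 0.91) had smaller differences in edgeR, with overlapping groups. For Angpt1 and for Tek, 6 of 7 treated mice were above the vehicle median. The VEGF ligands and Flt1 differed by less than their errors. Vegfa stood at −0.03 (SE 0.113), Vegfb at 0.01 (SE 0.131), Vegfc at −0.13 (SE 0.696) and Flt1 at 0.0038 (SE 0.127). The error of Vegfc is wide, so that a moderate difference in either direction was not detectable at this depth.

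**Figure D2:**
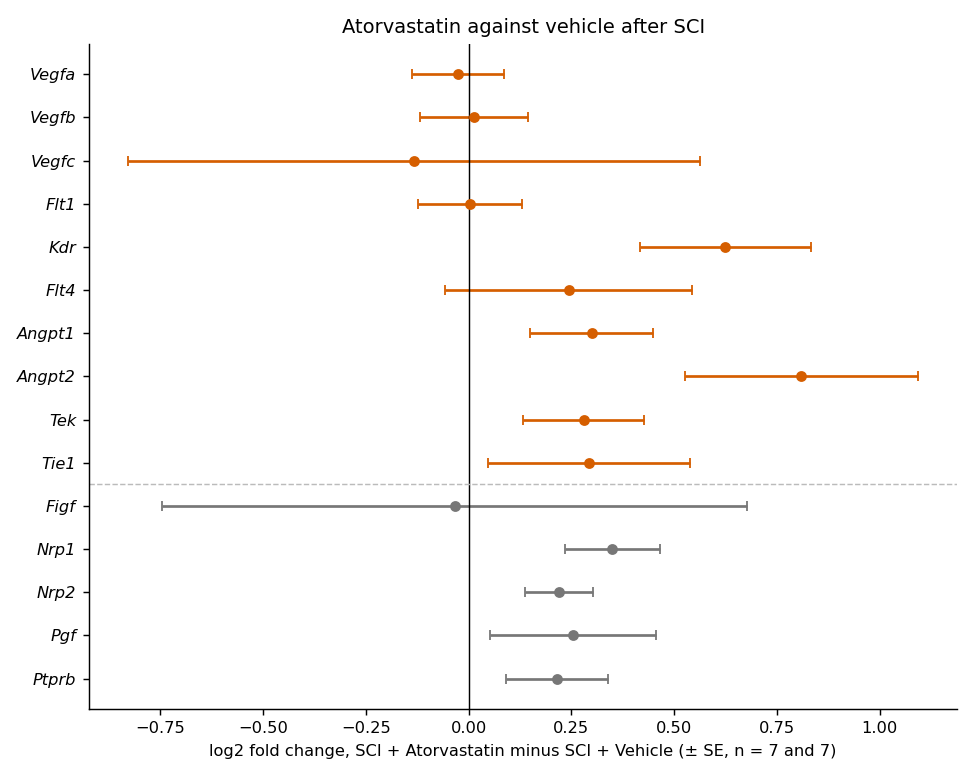
Log2 fold change between SCI + Atorvastatin and SCI + Vehicle (n = 7 and 7) with its standard error, for the 10 genes (orange, above the dashed line) and for 5 partner genes (grey). Angpt2 at 0.81 and Kdr at 0.62 lie farthest to the right, and the VEGF ligands and Flt1 lie within 1 standard error of 0.

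The partner genes also had unadjusted differences. Nrp1 stood at 0.35 (SE 0.116, unadjusted p = 0.0065, adjusted p = 0.68, edgeR) and Nrp2 at 0.22 (SE 0.0837, unadjusted p = 0.016, adjusted p = 0.68, edgeR), and 4 of the 5 tested were higher, with a median of 0.22. Of the endothelial response genes 6 of 12 were higher, with a median of −0.03, among them Klf2, a flow-induced transcription factor known to respond to statins (0.59, SE 0.256, unadjusted p = 0.031, adjusted p = 0.69, edgeR). Apln stood the other way by as small a p (−0.33, SE 0.147, unadjusted p = 0.034, adjusted p = 0.69, edgeR). Of the oxygen sensing genes 5 of 8, and of the hypoxia targets 7 of 11, were higher, with no gene at an unadjusted p below 0.05 in either list.

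Markers of most cell types, those of vessels among them, were more often higher than lower with atorvastatin. Over all genes 48.7% were higher, and 1132 of 16091 had an unadjusted p below 0.05 in edgeR. Of 12 endothelial markers 10 were higher with atorvastatin (median 0.27), as were 7 of 8 pericyte markers (median 0.35), 3 of 4 smooth muscle markers (median 0.38) and 6 of 6 fibroblast markers (median 0.94, all 6 at an unadjusted p below 0.05), with 1 endothelial, 2 pericyte and 1 smooth muscle marker at such a p. So were 8 of 8 microglia or macrophage markers (median 0.13) and 6 of 8 astrocyte markers (median 0.02), with none at such a p, and 6 of 6 skeletal muscle markers (median 2.24, 1 at such a p). In contrast 0 of 8 neuronal markers (median −0.15) and 2 of 6 oligodendrocyte markers (median −0.06) were higher. Skeletal muscle markers summed to 5.15 to 1645 CPM with atorvastatin and 4.49 to 365 CPM with vehicle. Relative to the summed endothelial markers of the same mouse, a scale chosen after the data were seen, the mean log2 difference was 0.69 for Angpt2 (0.98 on unscaled log2 CPM) and 0.40 for Kdr (0.69 unscaled). On that scale all 7 treated mice stayed above the vehicle median for Angpt2 and 5 of 7 did for Kdr, but those above every vehicle mouse were 2 for Angpt2 and 1 for Kdr. The difference farthest from 0 on this scale was that of Vegfc (−0.96), which includes a value of 0 in SCI + Atorvastatin mouse 4. For Angpt1, Tek and Tie1 it was 0.02, 0.0018 and 0.06. For Vegfa, Flt1 and Vegfb it was −0.29, −0.29 and −0.25, and no treated mouse was above the vehicle median for Vegfb. The part of the number of vessels or of perivascular and scar cells in these differences was not tested.

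Ratios within a mouse do not depend on the library's scale, so the balance of 3 receptor or ligand pairs was compared. The ratio of Flt1 to Kdr counts differed between the treatments. Its geometric mean was 5.82 with atorvastatin and 9.41 with vehicle, a log2 difference of −0.69 (SE 0.246, exact two-sided permutation p = 0.0146, 0.0437 after Benjamini-Hochberg adjustment over 3 ratios). Log2 ratios ran from 2.27 to 3.22 with atorvastatin and from 2.54 to 4.08 with vehicle, and 1 of 7 treated mice was above the vehicle median. The exact p ranged from 0.00233 to 0.0291 with each mouse left out. In TPM the difference was −0.66 with p = 0.0373 by the exact test, or 0.0559 adjusted. In counts the ratio restates the difference in Kdr: mean log2 CPM differed by 0.69 for Kdr and by −0.0062 for Flt1. The ratio is thus no separate result, and Kdr itself had an adjusted p of 0.68 over all genes in edgeR. Adjustment over 3 ratios is the milder one.

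The ratio of Angpt2 to Angpt1, an agent of vessel change against one of stability, was 0.435 with atorvastatin and 0.274 with vehicle. The log2 difference of 0.67 (SE 0.368) did not pass the exact permutation test (p = 0.0851, adjusted p = 0.128), and 6 of 7 treated mice were above the vehicle median. Without SCI + Vehicle mouse 4 it was 0.84, with an exact permutation p of 0.0291. This result changed with the unit. In TPM the ratios were 0.472 and 0.214, the log2 difference was 1.14 (SE 0.403), and the exact permutation p was 0.0029 (adjusted p = 0.0087), with 6 of 7 treated mice above every vehicle mouse. The Angpt2 TPM per CPM ranged from 0.526 to 0.686 in the atorvastatin mice and from 0.277 to 0.648 in the vehicle mice, against 0.513 to 0.606 and 0.493 to 0.653 for Angpt1. The ratio of Tie1 to Tek was 0.345 with atorvastatin and 0.331 with vehicle (log2 difference 0.06, SE 0.209, exact permutation p = 0.772).

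**Figure D3:**
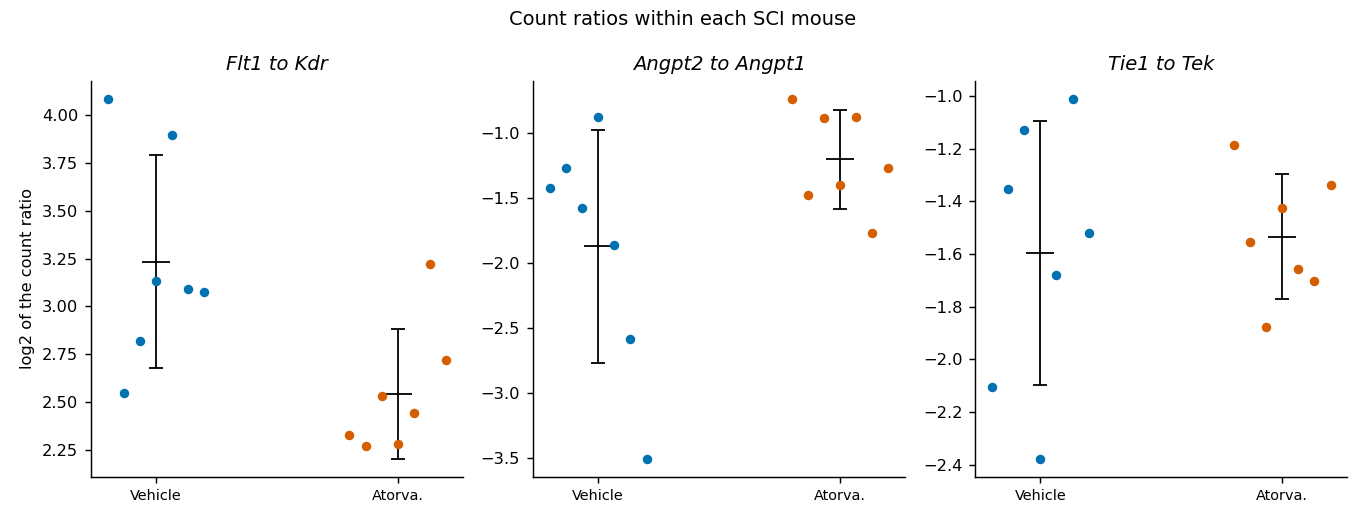
Log2 of the count ratio within each SCI mouse for 3 pairs of genes, with points for mice (n = 7 SCI + Vehicle, n = 7 SCI + Atorvastatin) and black marks for the mean ± SD. For Flt1 to Kdr the atorvastatin mice run from 2.27 to 3.22 and the vehicle mice from 2.54 to 4.08. The groups overlap for each of the 3 pairs.

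Against the controls these ratios rested on counts of 0. In controls 1 and 2, Flt1 and Kdr held 1856 and 362 counts, and 2956 and 0 counts; Angpt2 and Angpt1 held 0 and 0, and 166 and 170; Tie1 and Tek held 178 and 903, and 0 and 137. The smallest exact p that 7 mice against 2 can give is 0.0556, and the exact permutation p was 0.0556 for Angpt2 to Angpt1 in both comparisons, 0.444 and 0.278 for Flt1 to Kdr, and 0.111 and 0.0556 for Tie1 to Tek. No fold is given.

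Among the 14 SCI mice, with each treatment group centred on its own mean, 1 of 45 pairs of these genes passed the adjustment. Flt4 and Tie1 rose and fell together (Pearson r = 0.824, permutation p = 0.00034, adjusted p = 0.0153; Spearman rho = 0.785, permutation p = 0.0012, adjusted p = 0.0558). Without the 2 mice farthest from the median of Flt4 r was 0.758, and it was 0.844 within the atorvastatin group and 0.860 within the vehicle group. On log2(TPM + 1) r was 0.740 and 0 pairs passed, as was so without SCI + Atorvastatin mouse 1, SCI + Vehicle mouse 1 or SCI + Vehicle mouse 4. Flt1 and Kdr had r = 0.275 (permutation p = 0.332) and Angpt1 and Angpt2 had r = 0.177 (permutation p = 0.596), neither of which passed. Tek and Tie1 had r = 0.605 (permutation p = 0.0296, adjusted p = 0.19).

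**Figure D4:**
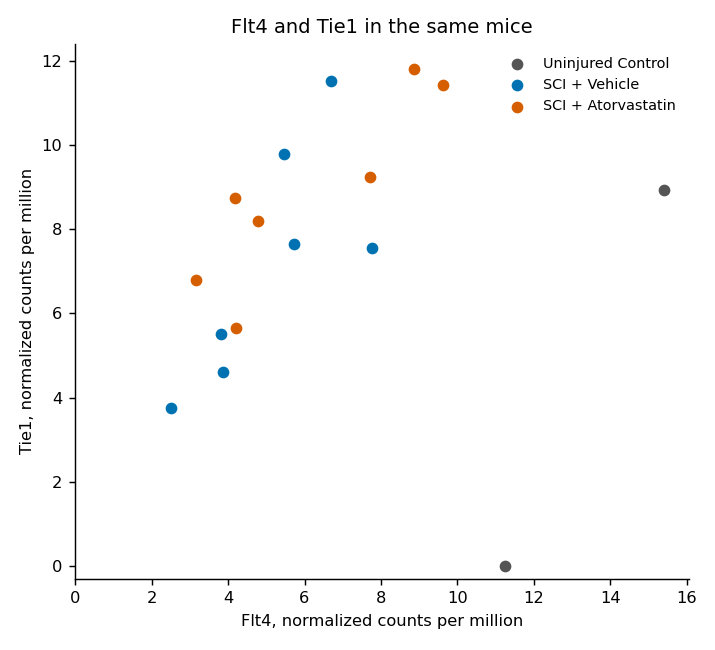
Flt4 against Tie1 in the same mice, in CPM after TMM normalization, with 1 point per mouse in the 3 groups. Among the 14 SCI mice both genes run together (r = 0.824 after centring each group), and both controls lie at Flt4 values above every SCI mouse.

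Over the same 14 mice, the log2 level of each gene was set beside the summed endothelial markers as a description. Of the receptors, r was 0.64 for Tek, 0.57 for Tie1 and 0.51 for Flt4, but 0.07 for Flt1 and −0.05 for Kdr. It was 0.61 for Angpt2 and 0.57 for Angpt1, −0.27 for Vegfb and −0.73 for Vegfa, so that mice with more endothelial transcripts tended to have less Vegfa. All these values share the library's scaling. As a description, the genes most like each of the 10 were taken from 15931 genes by r over these mice. For the ligands they were Ddc for Vegfa (r = 0.892), Ddr1 for Vegfb (0.945), Tcf15 for Vegfc (0.897), Rbm7 for Angpt1 (0.890) and 9330175E14Rik for Angpt2 (0.938). For the receptors they were Rpap1 for Flt1 (0.922), H2-Ob for Kdr (0.901), Zfp939 for Flt4 (0.865), Olfr111 for Tek (0.865) and Fzd6 for Tie1 (0.907). Whether such values exceed what a search over this many genes gives was not tested.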

How the data were processed

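Spinal cord RNA of 16 mice was sequenced from libraries of a stranded total RNA kit. Per the labels, the submitters' processing notes name Trimmomatic 0.38, FastQC 0.12.1, STAR 2.5.4b, RSEM 1.3.1 and the mm10 genome. Counts, whole and not normalized, and TPM, scaled for transcript length and library size, were both deposited by the authors for each gene symbol. The step that gave whole-number counts is not given in the sources used here.

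Groups came from the sample labels, which name each sample a biological replicate. The main test was the quasi-likelihood test of edgeR 4.0.16 (R 4.3.3) on the counts, with TMM normalization and the 2 groups of a comparison per fit. It covered 16091 genes whose mean TPM exceeded 1 in a condition, with Benjamini-Hochberg adjustment over them. Thresholds were an adjusted p of 0.05 against controls, an unadjusted p of 0.001 between treatments, and a 25% change, as in the study's methods, except that the study applied the second to genes already past the first and here it was applied to all genes tested. Standard errors are the log2 fold change divided by the root of its F statistic. Log2 ratios used counts plus 0.5 (or TPM plus 0.01) and exact two-sided permutation tests (scipy 1.17.1). Correlations used log2 CPM centred by group, 100000 resamples within groups and adjustment over 45 pairs. Alternatives were DESeq2 1.42.0, its size factors, limma 3.58.1 on log2(TPM + 1), voom with group weights, other filters, 1 fit of all groups, a replicate block and each mouse left out.

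The 10 genes and the lists were chosen with earlier results of these data known. From each list, up to 4 called genes with the smallest p were named, or values without a call, and for each of the 10 the gene most like it. Klf2, Apln, Nrp1 and Nrp2 between treatments were named after their values were seen. Positions are from GENCODE M21 (GRCm38) and promoters from RefSeq (GRCm38.p6). Library totals of 14823292 to 25579826 counts set the precision of low genes.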

Additional observations from a re-analysis of the deposited data

Results flagged for a closer look

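Of 20 groups of 7 mice (10 genes in 2 treatment groups), 1 held a mouse set apart from the rest by Dixon's test, and chance alone gives about 1 such group in 20. Vegfa was at 79.6 CPM in SCI + Atorvastatin mouse 1, with the next mouse at 67.1 CPM and the lowest at 58.0 CPM. The same mouse was also the highest of its group for Kdr (25.7 CPM) and Tie1 (11.8 CPM). The log2 fold change of Vegfa between the treatments lay between −0.087 and 0.058 with each mouse left out.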

How the results depend on the processing

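Calls against the controls depended on the processing. In SCI + Vehicle against Uninjured Control, 2 of the 10 genes were called by the main test, 1 with no gene filter, 0 with a mean TPM above 1 required in every condition (which drops Vegfc), 0 with voom, and 1 to 6 with a mouse left out. In SCI + Atorvastatin against Uninjured Control, 2 were called by the main test, 1 with that stricter filter, 4 by limma on log2(TPM + 1) and 0 with voom. With an SCI + Atorvastatin mouse left out, 1 or 2 were called. Between the treatments 0 were called under all 22 alternatives. For SCI + Vehicle against Uninjured Control, leaving out any 1 SCI + Vehicle mouse gave 1 call. The higher end of its range came only from fits with 1 control left out. Calls in such fits are not used in either comparison, because the lone control is then assumed to vary like the SCI mice. The calls over all genes also rose in those fits.

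With the replicate block 0 of the 10 genes were called in each comparison, and of all genes 27 with vehicle and 0 with atorvastatin against controls, the latter with 1377 at an unadjusted p below 0.05, and 8 between treatments. The numbers did not pair the treatment groups: same-numbered mice had r of −0.15 to 0.09 over 7 pairs, and 0 of the SCI + Atorvastatin mice correlated best with its own number. With the replicate block Tek was at 0.37 with vehicle and 0.61 with atorvastatin against controls, and Flt1 was at −0.0043 between treatments.

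Other directions reversed where the difference was near 0 or the controls disagreed. Against controls, Flt1 was at 0.013 and 0.020 by limma with vehicle and atorvastatin, and Tek at 0.29 and 0.66 by limma and 0.34 and 0.67 by voom. Leaving out a mouse, with vehicle, moved Flt1 between −0.32 and 0.20, Kdr between −0.61 and 11.06, Tek between −1.14 and 1.73, and Tie1 between −0.32 and 10.32. With atorvastatin it moved Flt1 between −0.30 and 0.22, Tek between −0.84 and 2.03, and Tie1 between −0.015 and 10.67. The highest values for Kdr and Tie1 were fitted against a single control at 0 and are no bound. The log2 ratio of Flt1 to Kdr against controls ran from −9.30 to 0.88 with vehicle and from −9.99 to 0.19 with atorvastatin.

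Between the treatments, Vegfa was at 0.018 by limma and 0.011 by voom, Vegfc at 0.022 by limma, and Flt1 at −0.0022 with the stricter filter and −0.0034 with voom. Leaving out a mouse moved Vegfa between −0.087 and 0.058, Vegfb between −0.077 and 0.067, Vegfc between −0.33 and 0.30, Flt1 between −0.066 and 0.075 and the log2 ratio of Tie1 to Tek between −0.068 and 0.16. Relative to summed endothelial markers, Vegfb was at −0.25, Flt1 at −0.29 and Flt4 at −0.067. Kdr and Angpt2 had an unadjusted p below 0.05 in 21 of 22 alternatives each, the exception being the fit of all 3 groups. The log2 ratio of Angpt2 to Angpt1 was 1.14 in TPM and 0.40 to 0.84 with a mouse left out, passing without SCI + Vehicle mouse 4. The number of correlated pairs was 0 in TPM and 0 to 2 with a mouse left out. The cause of these changes was not tested.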
